A study of Arabidopsis thaliana with 32 samples.

Results

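A set of 1929 Arabidopsis thaliana genes was called as carrying more elongating RNA polymerase II in tfiis-1 than in Col-0 after 3 h of heat shock, and in no other comparison. The genes were chosen by list membership: each was in the deposited list of sites higher in tfiis-1 at 3 h and in none of the other 7 deposited lists, which cover both directions at 4 times. They make up 1929 of the 6499 genes of that list and of the 9114 genes of all lists. Their 3089 distinct summits are part of 12084 in the same list and of 29485 in all lists. A summit is the single base pair that the authors reported for a site of difference. The choice used the 3 h contrast between the genotypes, so the counts, positions and gene lengths below describe the set and carry no test. The lists without scores, the 3 h list among them, show no value next to a threshold, so genes just inside and just outside it cannot be shown.

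The study compared tfiis-1, a mutant of the elongation factor TFIIS, with wild-type Col-0, in seedlings grown in vitro to 14 days after stratification. Chromatin was immunoprecipitated with an antibody against polymerase phosphorylated on Ser2 of its C-terminal domain (S2P). Both genotypes were sampled before heat shock (0 min) and 10 min, 30 min and 3 h into it. Each combination had 3 ChIP libraries from biological triplicates and 1 input, 24 and 8 samples in all. The labels do not give the temperature, the kind of mutation in tfiis-1 or the number of seedlings pooled for a library. A seedling mixes many cell types, so signal per cell and numbers of cells cannot be told apart. Values for single libraries are not part of the lists. Depth is therefore unknown, replicates cannot be compared, and no single site has a replicate check here.

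RNA polymerase II moves through a gene while Ser2 of its tail repeats is phosphorylated, and it pauses or slides backwards when it meets an obstacle. TFIIS enters such a backtracked polymerase and stimulates it to cut its own transcript, after which elongation can resume. S2P ChIP therefore reads where elongating polymerase sits, and a list of this kind reads where it differs between tfiis-1 and Col-0.

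Membership of the 3 h list was common: 6498 of 27444 nuclear protein-coding genes (23.7%) were in it. The genes called at 3 h only, 1928 of them protein-coding, were 7.03% of the same background. The remaining 4570 genes of the 3 h list stood in at least 1 further list. Of these, 1083 were also tfiis-1-higher at 0 min, 1832 at 10 min and 3739 at 30 min, lists that hold 4.9%, 10.9% and 16.6% of all protein-coding genes. In the other direction, 5, 20, 506 and 1578 were also Col-0-higher at 0 min, 10 min, 30 min and 3 h, lists that hold 0.113%, 0.251%, 3.16% and 10.8%. The largest class next to the 3 h only genes was that of 1396 genes that were tfiis-1-higher at 30 min and 3 h and in no further list. In 1122 of the 3 h only genes there was a lone summit, 530 genes held 2, 197 held 3, 66 held 4, 12 held 5 and 2 held 6.

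The genes with most summits included the cell cycle regulator RBR1, the DNA topoisomerase TOP1ALPHA and the callose synthase GSL05. Genes were taken here by their number of summits, and a shared function among them was not tested. AT5G17910, which has no symbol in the gene table, held 6 summits on chromosome 5 of TAIR10. They ran from position 5927502, 235 bp from the gene start, to position 5932462, 495 bp from the gene end. AT1G06900 on chromosome 1 also held 6, but the last of them lay at 0.53 of the gene, and the first only 20 bp from its start (position 2120725). These genes of similar length, 5691 and 5981 bp, thus differed in how far downstream the summits reached.

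RBR1 (AT3G12280), the retinoblastoma-related protein that holds back entry into S phase, held 5 summits on the minus strand of chromosome 3, between positions 3919016 and 3915087. They lay 343, 1269, 1730, 3543 and 4272 bp from the start of a gene of 6011 bp, so that its last 1738 bp held none. TOP1ALPHA (AT5G55300), the DNA topoisomerase I that relaxes supercoils ahead of and behind polymerases, held 5 summits on chromosome 5 between positions 22429397 and 22426043. The first was 117 bp from the start, and the last lay at 0.69 of the gene. Positions of this kind follow transcription, with the annotated start at 0 and the annotated end at 1. GSL05 (AT4G03550), a callose synthase also known as PMR4 from its role in resistance to powdery mildew, held 5 between 0.03 and 0.80 of its 6555 bp. PLDBETA1 (AT2G42010), a phospholipase D that makes the signalling lipid phosphatidic acid, held summits at 0.06, 0.46, 0.56, 0.66 and 0.97. Both of these had a long stretch without a summit after the first one, but not only there. GSL05 had another between its summits 2257 and 4282 bp from the start, and PLDBETA1 between those at 3827 and 5646 bp.

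AT1G64530, the NIN-like protein gene NLP6 of a family of nitrate-response transcription factors, was covered almost end to end. Its 5 summits lay between 78 bp from the start and 101 bp from the end of 3457 bp. AT4G33140 was the densest of the genes with 5 summits, with 1.69 summits per kb and positions from 0.06 to 0.96. ADK1 (AT1G03930), a casein kinase I-like kinase, TRM15 (AT4G00440), of the TON1 Recruiting Motif family, and TPR15 (AT2G41520), a tetratricopeptide and J-domain protein, held 5 each. Their first summits lay at 0.13, 0.12 and 0.08, and their last at 0.75, 0.73 and 0.64. AT2G18900 was the exception among the 14 genes with most summits: its first summit lay 1441 bp from the start, at 0.34, and its last at 0.93.

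**Figure D1:**
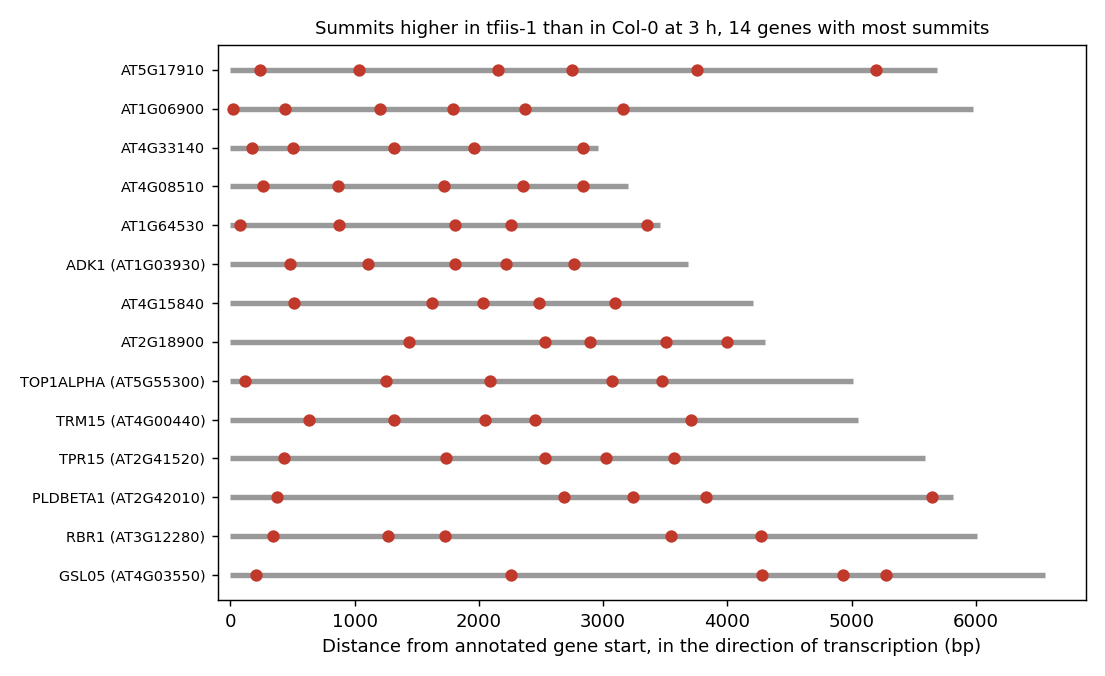
Gene maps of the 14 genes with most summits among those tfiis-1-higher at 3 h only. Each grey bar is a gene drawn to scale from its annotated start (0 bp), and each red point is a summit; 13 of the 14 genes have their first summit 630 bp from the start or nearer, and AT2G18900 has it at 1441 bp.

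Most summits of the set lay in the gene body, upstream of its middle. The median position was 0.42 (quartiles 0.22 and 0.64) over 3109 pairs of summit and gene, since a summit inside overlapping genes was counted in each. Positions below 0.5 held 60.0% of them. The first 10% of the gene held 10.2% (316 pairs, exact 95% interval 9.12 to 11.3) and the last 10% held 4.12% (128 pairs, 3.45 to 4.88). These intervals cover counting error only. Counted in steps of 0.1, shares stayed between 10.2% and 13.0% up to position 0.6, and lay between 4.12% and 9.39% beyond it. In base pairs, the median summit lay 1069 bp from the gene start and 1452 bp from its end. The distribution was thus broad, with no peak at either end of the gene.

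The sets called at a single time differed in where their summits lay. Summits of the 376 genes that were tfiis-1-higher at 10 min only had a median position of 0.78, those of the 326 genes called at 30 min only had 0.60, and those of the 1929 genes called at 3 h only had 0.42. The last 10% of the gene held 31.4%, 12.6% and 4.12% of their summits, in the same order of times. The first 10% held 11.1%, 1.48% and 10.2%. The single-time genes at 10 min therefore lay most often at 3′ ends, with a smaller group at 5′ ends, those at 30 min lay mostly beyond the middle of the body, and those at 3 h mostly before it. Each time has its own libraries, and the sets share no gene by construction, so these are descriptions of 3 sets and not of a movement within a gene.

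**Figure D2:**
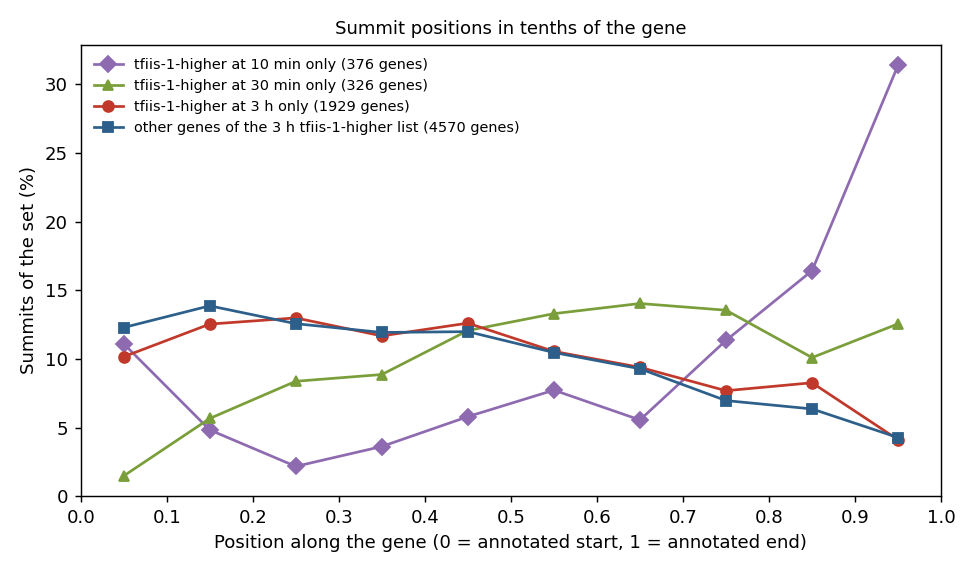
Share of summits (y axis, % of the set) in each 10% of the gene (x axis, 0 = annotated start, 1 = annotated end) for genes tfiis-1-higher at 10 min only, at 30 min only and at 3 h only, and for the other genes of the 3 h tfiis-1-higher list. The 3 h only line stays close to that of the other 3 h genes, while 31.4% of the 10 min only summits are in the last 10%.

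Against the other genes of the same 3 h list, the 3 h only genes had a slightly more downstream median, 0.42 against 0.39. They also had a smaller share of summits in the first 10% of the gene, 10.2% against 12.3%. The other genes were mixed in this respect. Those in no Col-0-higher list (2803 genes) also had a median of 0.42, and 11.2% of summits in the first 10%. The last 10% of the gene held 4.12% of summits in the 3 h only genes (3.45 to 4.88), against 5.96% in these 2803 genes (5.36 to 6.61). Those also in a Col-0-higher list (1767 genes) had a median of 0.35, with 14.1% in the first 10% and 1.54% in the last. The rule for the 3 h only genes removes every gene with a Col-0-higher summit. The 1396 genes called at 30 min and 3 h and in no further list had a median of 0.42 as well.

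Genes with several summits carried them spread over the body. With 2 summits, the first lay at a median of 0.21 and the second at 0.64 (530 genes). With 3, the medians were 0.14, 0.44 and 0.79 (197 genes), and with 4 they were 0.09, 0.36, 0.58 and 0.80 (66 genes). The first of several spread sites lies nearer the start than a lone one by its order alone, so its position is given as a description. Its median distance from the start was 854 bp for lone summits, 522 bp in genes with 2, 457 bp in genes with 3 and 363 bp in genes with 4. Those genes were also longer, with median lengths of 2148, 2506, 3268 and 4084 bp. Neighbouring summits of a gene lay a median of 846 bp apart (quartiles 616 and 1191 bp, 1180 gaps), and only 3 gaps were under 300 bp. In the other genes of the 3 h list the median gap was 923 bp (4486 gaps). Several summits in a gene were thus rarely listed close together. How nearby signal was joined in the calling is not stated, so the spacing cannot show whether they are separate sites.

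**Figure D3:**
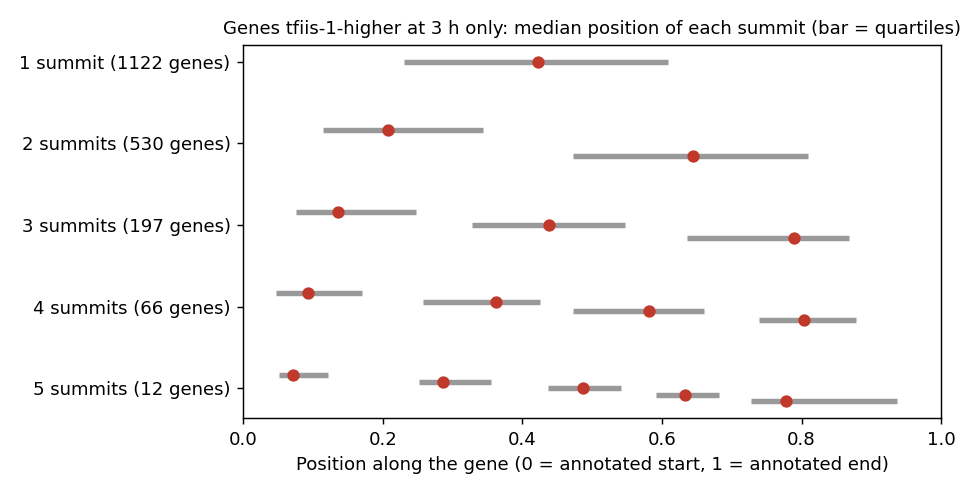
Median position (red points, x axis, 0 = annotated start, 1 = annotated end) and quartiles (grey bars) of the first, second and later summits in genes tfiis-1-higher at 3 h only, grouped by the number of summits in the gene (rows). Lone summits centre on 0.42, and the first summit of the 12 genes with 5 has a median of 0.07; the 2 genes with 6 summits are not drawn.

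The 3 h only genes were shorter than the rest of the list. Their median length was 2406 bp (quartiles 1824 and 3296 bp), against 2987 bp in the other 3 h genes and 2078 bp over all nuclear protein-coding genes. Of all protein-coding genes of 2 to 3 kb, 9.19% were tfiis-1-higher at 3 h only. That share was 8.77% at 3 to 4 kb, 8.78% at 4 to 6 kb and 7.49% at 6 kb or more, and thus nearly level. For the other genes of the 3 h list the share climbed through the same classes, with 19.9%, 28.3%, 33.1% and 48.2%. Most long genes of the 3 h list were therefore also in another list, and the 3 h only genes were mostly of middle length. Below 1 kb the order turned: 2.08% of genes were in the 3 h only set and 0.868% among the other 3 h genes.

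From 2 kb upwards the 3 h only genes also held fewer summits at like length. The rule leaves out every gene with a call in a further list, and its effect on length and summit number was not tested. Of all 3 h only genes, 41.8% held 2 or more summits (39.6 to 44.1), against 59.0% of the other 3 h genes (57.5 to 60.4). In genes of 1 to 2 kb the shares were nearly equal, 27.1% and 27.9%. They were 44.0% and 54.1% at 2 to 3 kb, 56.4% and 66.9% at 3 to 4 kb, 63.5% and 78.5% at 4 to 6 kb, and 54.5% and 82.1% at 6 kb or more. The gap was thus widest in the longest class, which held 66 of the 3 h only genes. Median positions in the longest class were alike, 0.24 and 0.26, and lay nearer the start than in genes of 1 to 2 kb, where they were 0.48 and 0.44. In distance, the median summit of the longest class lay 1813 bp from the start in the 3 h only genes and 2042 bp in the others.

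**Figure D4:**
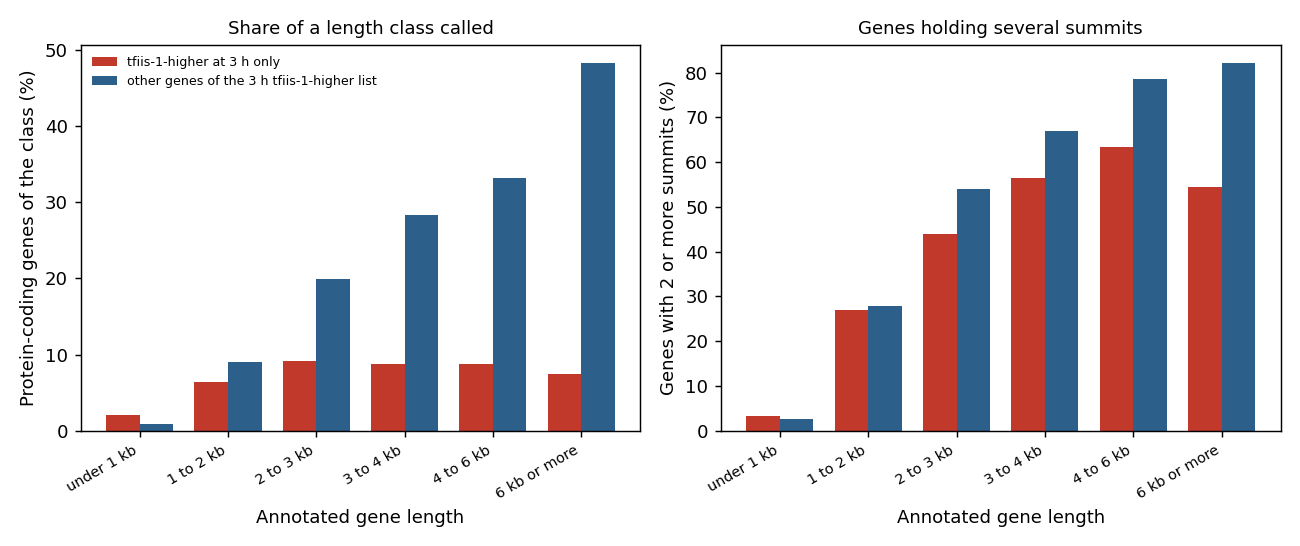
Left, share of all protein-coding genes of each length class (y axis, %) that were tfiis-1-higher at 3 h only (red) or were other genes of the 3 h tfiis-1-higher list (blue). Right, share of each set's genes with 2 or more summits (y axis, %) in the same length classes; the red bars stay between 7.49% and 9.19% from 2 kb upwards on the left, while the blue bars reach 48.2%.

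The extremes of length show the range. The longest gene of the set, AT1G67120, which encodes MDN1 (MIDASIN 1), has 26211 bp and held a lone summit 819 bp from its start, on chromosome 1 at position 25094819. The shortest, AT5G19595, has 192 bp and held 1 summit, which also lay in the overlapping gene AT5G19590. XIB (AT1G04160), a myosin XI motor that moves organelles along actin, held 4 summits over 10341 bp, the last at 0.78. PIE1 (AT3G12810) with 9153 bp and MOM (AT1G08060) with 9381 bp held 3 summits each, and none of these lay beyond 0.38 of the gene. Per kb, the densest genes of at least 1000 bp were AT1G61730, AT3G22530, AT4G15770 and AT5G58005, with 1.94, 1.94, 1.90 and 1.82 summits per kb, all from 2 or 3 summits in short genes. Both summits of AT3G22530 also lay in AT3G22520 on the opposite strand, so the gene to which they belong cannot be told apart.

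The lone summit nearest to a gene start was that of AT2G21595, 9 bp from it. This summit also lay in the overlapping gene RER1B (AT2G21600), so the gene to which it belongs cannot be told apart. AT4G35295 had its lone summit 23 bp and AT1G64561 39 bp from the start. At the other end, AT3G04854, AT1G26900 and ER-ANT1 (AT5G17400), an adenine nucleotide transporter of the endoplasmic reticulum, had theirs 18, 19 and 21 bp from the annotated end.

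The set was spread over all 5 chromosomes and both strands. Chromosome 1 held 26.3% of the 3 h only genes, against 25.5% of the other 3 h genes and 26.1% of all protein-coding genes. On the other chromosomes the shares of the 3 h only genes and of all protein-coding genes differed by less than 2 percentage points. The plus strand held 1003 of the genes and the minus strand 926. An adjacent protein-coding gene was also tfiis-1-higher at 3 h only for 332 of 1928 genes (17.2%), against 15.2% of the other 3 h genes and 13.5% of all protein-coding genes. The longest run of adjacent members had 4 genes: KMS1 (AT4G14950) with 3 summits, TUA6 (AT4G14960), an alpha-tubulin, with 3, MAPR4 (AT4G14965) with 2 and AT4G14970 with 1. This run was named after its values were seen. The transcription factor genes NAC050 (AT3G10480) and NAC052 (AT3G10490), which have consecutive identifiers, were both members, with 3 and 2 summits.

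No summit of another list lay inside any of the genes, as the rule demands. In 247 of the 1929 genes (12.8%) a summit of another list lay within 500 bp of the gene. Counted in the same way, outside the gene, that share was 16.7% of the other 3 h genes and 9.36% of all protein-coding genes. In 192 of these 247 3 h only genes the nearest such summit lay downstream of the gene end and in 55 upstream of its start, against 626 and 137 of 763 other 3 h genes. In the 3 h only genes the nearest summit was Col-0-higher at 3 h in 117 cases, tfiis-1-higher at 10 min in 71, tfiis-1-higher at 30 min in 37, Col-0-higher at 30 min in 16 and tfiis-1-higher at 0 min in 6. A Col-0-higher summit of 3 h was the nearest, alone or at the same position as one of a further list, in 47.8% of these 3 h only genes, against 47.3% of the other 3 h genes and 43.3% of all protein-coding genes with a summit that near. Of the 117 cases next to a Col-0-higher summit of 3 h, 97 lay downstream, and in 69 of those the summit belonged to a gene on the opposite strand, so that the ends of both genes face each other. ATOZI1 (AT4G00860) had such a summit of GIF3 (AT4G00850) 6 bp beyond its end. VPS60.2 (AT5G04850) and AT3G44190 had Col-0-higher summits of 30 min 5 bp and 4 bp beyond their ends. A Col-0-higher summit of 30 min in the golgin gene GC6 lay 8 bp beyond the end of AT3G27520. ChIP reads carry no strand of transcription, so signal from a gene and from a converging neighbour cannot be told apart near a shared end. A summit of another list lay within 500 bp of a summit of the set in only 26 genes (1.35%).

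Overlapping genes formed a small class. In 54 genes at least 1 summit, 40 distinct summits in all, also lay inside an overlapping gene, and in 53 of them the overlapping gene was on the opposite strand. For 47 genes every summit was shared in this way, so the gene to which the signal belongs cannot be told apart. PMD2 (AT1G06530) and AT1G06540, on opposite strands, shared the same 2 summits at positions 2001638 and 2002511 of chromosome 1. The lone summit of AT1G07500, a gene of 266 bp, also lay in ftsh10 (AT1G07510), and that of AT1G10395 also lay in AT1G10390.

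Known gene groups were counted in the set against the 7.03% of all protein-coding genes. Since the rule used this contrast, the counts are a description. The groups also differ in gene length, and their shares were not compared at like length. Some groups were matched by symbol or synonym, and only 768 of the 1929 members have a symbol of their own. A group can thus leave out genes of its family, and its counts and shares hold for the genes counted. The heat shock factors, U-box ligases, ubiquitin-conjugating enzymes, MAP kinases, calcium-dependent and CBL-interacting kinases, MYB, NAC and bZIP factors, EMB and VPS genes, callose synthases, phospholipases D and the RBR and E2F genes were added as groups after counts had been seen. Among 21 heat shock transcription factor genes, whose products switch on chaperone genes, 4 were tfiis-1-higher at 3 h only (19.0%) and 9 were in the 3 h tfiis-1-higher list. The 4 were HSFA1D (AT1G32330), HSF1 (AT4G17750, also named HSFA1A), AT-HSFA5 (AT4G13980) and HSFA8 (AT1G67970), with 2, 1, 2 and 1 summits. HSFA1D and HSF1 belong to the HSFA1 class, known as the master regulators of the heat response. Their relative HSFA1E (AT3G02990) was tfiis-1-higher with 2 summits at 3 h, but had a Col-0-higher summit at 3 h as well and is no member. HSF3 (AT5G16820, HSFA1B) was in no list.

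The RBR and E2F group was compiled after RBR1 had been seen among the genes with most summits, so its count is not independent. Of its 9 genes, 4 were members: RBR1 with 5 summits, E2F1 (AT5G22220, the activator E2FB) with 4, ATE2F2 (AT1G47870, E2FC) with 3 and DEL3 (AT3G01330), an atypical E2F, with 1. E2F proteins bind the promoters of S phase genes, and RBR1 binds E2F proteins. The summits of E2F1 lay at 0.02, 0.29, 0.82 and 0.94, and those of ATE2F2 at 0.28, 0.51 and 0.94. DPB (AT5G03415), a dimerization partner of E2F proteins, was tfiis-1-higher at 30 min and 3 h with 2 summits each and Col-0-higher at 3 h with 1. DEL1 (AT3G48160) was Col-0-higher at 3 h only, and E2F3 (AT2G36010, E2FA), DPA (AT5G02470) and DEL2 (AT5G14960) were in no list.

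Of 19 genes of histone modification and chromatin remodelling, 15 were tfiis-1-higher at 3 h, and 3 of these were members (15.8%). These are long genes, with a median of 5840 bp against 2078 bp over all protein-coding genes. Of all protein-coding genes of 4 to 6 kb, 8.78% were members and 33.1% were other genes of the 3 h list. PIE1, the ATPase of the SWR1 complex that places the histone variant H2A.Z, had summits at 0.04, 0.21 and 0.38. LDL1 (AT1G62830), a histone demethylase, held 2 summits, and ATX1 (AT2G31650), which methylates H3 on Lys4, held 1 at 0.25. The remaining 12, among them INO80 (AT3G57300), BRM (AT2G46020) and REF6 (AT3G48430), were all tfiis-1-higher at 30 min too. Of 27 genes of DNA methylation and small RNA silencing, 7 were in the 3 h list and 2 were members (7.41%). MOM, which silences repeats without changing their methylation, had summits at 0.17, 0.27 and 0.33, and SUVH2 (AT2G33290), which helps to recruit RNA polymerase V, had 2 at 0.67 and 0.93. SUVH9 (AT4G13460), its close relative, was tfiis-1-higher at 30 min and 3 h and Col-0-higher at 3 h. The silencing gene DMS3 (AT3G49250), left out of the 27, was also a member and shared a summit with emb1796 on the opposite strand. The labels leave unsaid where reads were placed that match more than 1 gene copy, so calls on close relatives are uncertain here and in the families below.

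Among the hormone and light groups, only those of abscisic acid and of photoreceptors and the clock held members. ABA3 (AT1G16540), the sulfurase that activates the last enzyme of abscisic acid synthesis, held 3 summits, and OST1 (AT4G33950), the kinase that closes stomata in response to this hormone, held 2. These were 2 of 15 genes of abscisic acid synthesis and signalling (13.3%). CYP707A3 (AT5G45340), which breaks abscisic acid down, was among 6 members of 234 cytochromes P450 (2.56%). Its lone summit lay at 0.30. PHYD (AT4G16250), a phytochrome, and PRR5 (AT5G24470), a clock repressor, were 2 members of 24 photoreceptor and clock genes (8.33%). The summits of PRR5 lay at 0.03 and 0.30, and those of PHYD at 0.70 and 0.92. None of 18 auxin genes, 12 cellulose synthesis genes, 13 bZIP genes and 5 receptor kinases of immunity and brassinosteroid was a member. In these groups 6, 7, 5 and 2 genes were tfiis-1-higher at 3 h, and so were also in another list. Over all protein-coding genes, 7.03% were members and 23.7% were in the 3 h list. Groups this small can hold no member at a share of 7.03%.

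Among kinases, pumps and transporters, the calcium-dependent protein kinases CDPK2 (AT1G35670, CPK11) and CPK5 (AT4G35310) held 4 summits each, and 2 of 34 genes of this family were members (5.88%). MAPKKK14 (AT2G30040), MAPKKK15 (AT5G55090) and MAPKKK16 (AT4G26890) held 1 summit each, at 0.23, 0.70 and 0.59. With WRKY19 (AT4G12020), which the annotation also lists as a MAP kinase kinase kinase, they made 4 of 50 genes. The CBL-interacting protein kinases, which calcium sensors activate, had 3 members of 26 (11.5%). CIPK22 (AT2G38490), CIPK8 (AT4G24400) and CIPK2 (AT5G07070) held 1 summit each, at 0.46, 0.39 and 0.08. ECA1 (AT1G07810), a calcium pump of the endoplasmic reticulum, and HMA5 (AT1G63440), a copper pump, held 4 summits each. They were 2 of the 44 P-type ATPases counted (4.55%). Of 127 ABC transporters, 11 were members (8.66%). ABCB25 (AT5G58270), a mitochondrial transporter needed for iron-sulfur proteins of the cytosol, NAP7 (AT3G10670), ABCI10 (AT4G33460), ABCA7 (AT3G47780) and ABCC14 (AT3G62700) held 3 each.

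Groups of protein turnover and transport held members at shares from 3.23% to 13.0%, beside 7.03% of all protein-coding genes. Of the 62 proteasome genes counted, 40 were tfiis-1-higher at 3 h and 2 were members (3.23%): PBD2 (AT4G14800) with 3 summits and PAC1 (AT3G22110) with 1. Of 36 ubiquitin-conjugating enzymes, 23 were in the 3 h list and 3 were members (8.33%), UBC4 (AT5G41340) with 3 summits among them. The plant U-box ubiquitin ligases had 3 members of 23 (13.0%): SAUL1 (AT1G20780) with 4 summits, PUB45 (AT1G27910) with 3 and PUB18 (AT1G10560) with 2. Of 36 VPS genes, 4 were members (11.1%), and of 34 exocyst genes, which tether secretory vesicles, 3 were (8.82%). Of 256 embryo-defective (EMB) genes, which are needed for embryo development, 121 were in the 3 h list and 28 were members (10.9%), with emb2004 (AT1G10510) and emb2742 (AT3G12670) at 4 summits each. Ribosomal protein genes matched by name, which are not the whole family, gave 5 of 61 (8.20%). Among them were PSRP6 (AT5G17870), RS27A (AT3G61110) and MRPL11 (AT4G35490) with 1 summit each.

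Among other transcription factor families, there was 1 member of the 125 MYB genes counted (0.800%), MYB109 (AT3G55730). Its summits lay 37 bp from the start and 256 bp from the end. MYB4R1 (AT3G18100), which was not among the 125, was also a member and shared a summit with EMB1270 on the opposite strand. There were 4 of 99 NAC genes (4.04%) and 4 of 71 WRKY genes (5.63%), beside 7.03% of all protein-coding genes. Most genes of these families were in no list at all (105 MYB, 81 NAC and 52 WRKY genes). Among the genes counted, motors and other families gave 1 member each. These were KP1 (AT3G44730) of 17 kinesin and kinesin-related genes (5.88%) and XIB of 15 myosins (6.67%). The others were GSL05 of 12 callose synthases (8.33%) and PLDBETA1 of 12 phospholipases D (8.33%).

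**Figure D5:**
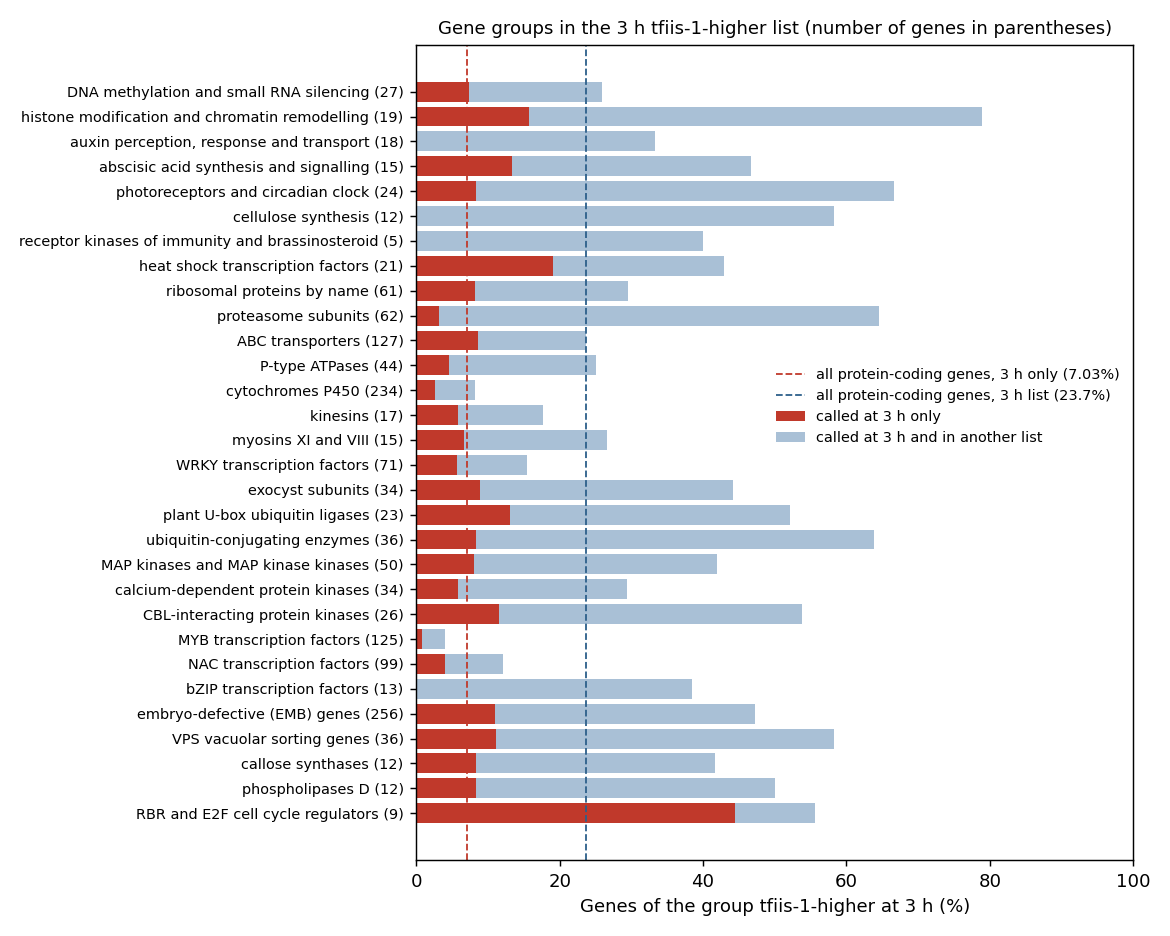
Share of each gene group (y axis, number of genes in parentheses) that was tfiis-1-higher at 3 h (x axis, %), split into genes called at 3 h only (red) and genes also in another list (light blue). Dashed lines give the same shares over all protein-coding genes, 7.03% and 23.7%; the proteasome bar reaches 64.5% with 3.23% in red.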

How the data were processed

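S2P RNAPII was profiled by ChIP-seq in tfiis-1 and Col-0 seedlings. The submitters' processing notes name Bowtie2, MACS3, deepTools, FastQC and TAIR10, with neither role nor version. How calls were thresholded, scaled between genotypes, set against inputs or pooled over replicates is not stated there. The authors deposited 8 lists of 1 bp summits, each with its gene and strand. A score per summit, deposited in 2 Col-0-higher lists on a scale that is not stated, was not used.

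Repeated lines were counted once. Gene starts, ends and symbols came from the RefSeq table of TAIR10.1, whose intervals equalled all 936 intervals given in the lists. All 9114 identifiers matched and no summit lay outside its gene. One member, AT5G38150, is annotated as a pseudogene. TAIR10 coordinates are printed for summits only. No sequence or exon annotation was used here, so planned motif counts were not made.

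The members and lists were chosen with earlier results of these data known. Some gene groups were matched by symbol, and several groups, named with the counts, were added or narrowed after counts were seen. Named genes were taken by a rule: the 14 with most summits, the 4 densest, up to 5 per gene group, the extremes of length and of lone summit position, up to 4 with shared summits and up to 6 nearest to another list. Intervals are exact (Clopper-Pearson, 95%). The position and membership steps were tested on simulated data. Depth per sample is unknown. Alternatives were merging within 300 bp, genes of at least 1000 bp, 1 position per gene, other edges and other membership rules. Python 3.11.15, numpy 2.4.6, pandas 2.3.3, scipy 1.17.1 and matplotlib 3.10.9 were used.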

Additional observations from a re-analysis of the deposited data

How the results depend on the processing

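The number of member genes was 1929 as reported, 1942 with summits in overlapping genes left out, 1682 without genes that have another list's summit within 500 bp, 2280 by the tfiis-1-higher lists alone and 1838 for genes of at least 1000 bp. Taking 1 position per gene moved the median position to 0.438, that of the other 3 h genes to 0.414, and the share in the first 10% to 4.92%. Edges of 300 bp gave 13.6% at the start and 8.01% at the end. Genes with 1 summit had a median length of 2148 bp. Within 1000 bp, an alternative chosen after seeing the data, 20.7% of genes had another list's summit nearby. The other alternatives stayed within the counting interval of their value, or within 1.5 times for counts. A stricter threshold was not run, as the 3 h list holds no score, and leaving out a replicate was not run, as no list holds values per library. No paired analysis was possible because the lists hold no values per library.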
